A study of Homo sapiens with 6 samples.

Results

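The genes described here are 38 genes of homologous recombination and of the Fanconi anaemia pathway. They were chosen by name with earlier results of these data known, and measured in samples labelled as the established pancreatic carcinoma line Capan-1. Of the 38 members, 34 had at least 1 probe set annotated to that gene alone, 77 probe sets in all. BRCA2, FANCA, FANCD2 and RBBP8 had none in the annotation used and were not analysed here, so the BRCA2 mutation for which this line is known cannot be set beside a level of its transcript. A probe set was tested if its log2 level reached 4 in at least 3 of the 6 samples, which kept 33 members and 56 of their probe sets. RAD52 was the member left out, since its brightest probe set read 6.17 in 1 mock sample and under 4 in the other 5.

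Both groups are labelled as Capan-1 cells grown in RPMI medium with 15% serum. They hold 3 samples labelled mock-transfected and 3 labelled p16-transfected, numbered V1 to V3 in each group. The p16 cells received a full-length p16INK4a cDNA under a cytomegalovirus promoter. For both groups the labels list G418 (1 mg/ml) together with hygromycin (0.1 mg/ml) for selection. Each sample was hybridised to 1 Affymetrix array from 300 ng of total RNA, and precision is limited by how few arrays there are. Whether a sample is a clone, a pool or a separate culture is not given, so each p-value reflects sample-to-sample spread alone, part of which may be technical.

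Double-strand breaks are repaired without loss of sequence by homologous recombination, in which the broken end is cut back to single-stranded DNA and paired with the sister chromatid. The Fanconi pathway unhooks crosslinks between DNA strands and hands the resulting breaks to the same machinery. Many of these genes are transcribed mainly in S and G2 phase, and p16 inhibits CDK4 and CDK6, the kinases that open the way into S phase. Capan-1 is widely used as a model of defective homologous recombination.

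The labels were first set against the transfected gene and its neighbours. CDKN2A, which encodes p16, read 5.61, 6.43 and 6.01 in mock V1 to V3 and 12.12, 13.01 and 12.67 in p16 V1 to V3. That is its brightest probe set, which may also match other transcripts. Another CDKN2A probe set read 2.02 to 2.03 in mock and 11.88 to 11.96 in p16 samples, and a further one stayed under 4 in every sample. MTAP, a neighbouring gene that a p16 cDNA does not carry, read 2.06 to 2.07 in the mock samples and 10.77 to 11.35 in those labelled p16, and the neighbouring CDKN2B read 2.34 to 2.36 and 8.56 to 9.06. The groups therefore differ around CDKN2A by more than the cDNA, and whether they are otherwise the same cells is not given. Over the probe sets tested, samples correlated at 0.927 to 0.991 within a group and at 0.716 to 0.781 between groups. Every difference below is one between samples labelled p16 and samples labelled mock. Of 10 pancreatic duct markers measured, 9 reached 4 in every mock sample and 8 in every p16 sample. CFTR stayed under 4 throughout, CEACAM6 lay under 4 in every p16 sample, and the summed log2 level of the 10 was 122 to 125 in mock and 93.1 to 96.8 in p16 samples. The 5 leukocyte, 5 endothelial, 3 acinar and 4 endocrine markers measured lay under 4 in every sample. Of 7 fibroblast markers, COL1A2, COL3A1 and DCN lay under 4 in every sample, 2 reached 4 in every mock and 3 in every p16 sample, and their summed level was 25.7 to 26.3 and 33.5 to 35.4. The part of these shifts in the results below was not tested.

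Members of the group were higher in p16 cells more often than lower. Of the 33 tested, 14 were higher, 2 (BARD1 and RAD51B) were lower and 17 were not called (limma, two-sided, Benjamini-Hochberg adjusted p under 0.05 over all probe sets tested). The background was high, because 42.0% of all 11658 genes tested were called, 19.5% higher and 22.5% lower. The members' share of calls in either direction, 48.5%, lay near that background. Their split did not lie near it, at 42.4% higher and 6.06% lower. As the members were chosen with earlier results of these data known, this contrast is a description and was not tested. The median log2 difference was 0.30 over the members and -0.03 over all genes, and it was 0.57 over the members once values under 4 were raised to 4, which changes the probe set that stands for RAD51B. Once the V number entered as a replicate block, 16 members were higher and 6 lower, where 67.9% of all genes were called, 32.4% higher and 35.5% lower.

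In 15 members every p16 sample lay above every mock sample, and in 4 every p16 sample lay below. FANCI among the 15 and ATM among the 4 were separated only beyond the printed digits. The groups did not overlap in 56.4% of all genes, 27.3% above and 29.1% below. By same-numbered pairs, 19 members (57.6%) were higher in p16 cells in all 3, against 41.8% of all genes. Lower in all 3 were 9 members, for which the share of all genes was not taken. Counts depended on single samples. Without p16 V3, 8 members were higher and 0 lower in limma (14 and 3 at an unadjusted p under 0.05), where 13.5% of all genes were higher and 16.4% lower. The counts were 9 and 3 without mock V2 (all genes 14.3% and 18.7%), 9 and 1 without mock V3, 11 and 3 without p16 V1, 13 and 1 without p16 V2, and 14 and 2 without mock V1. In a bulk sample, fewer cells of a type and less RNA per cell cannot be told apart.

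**Figure D1:**
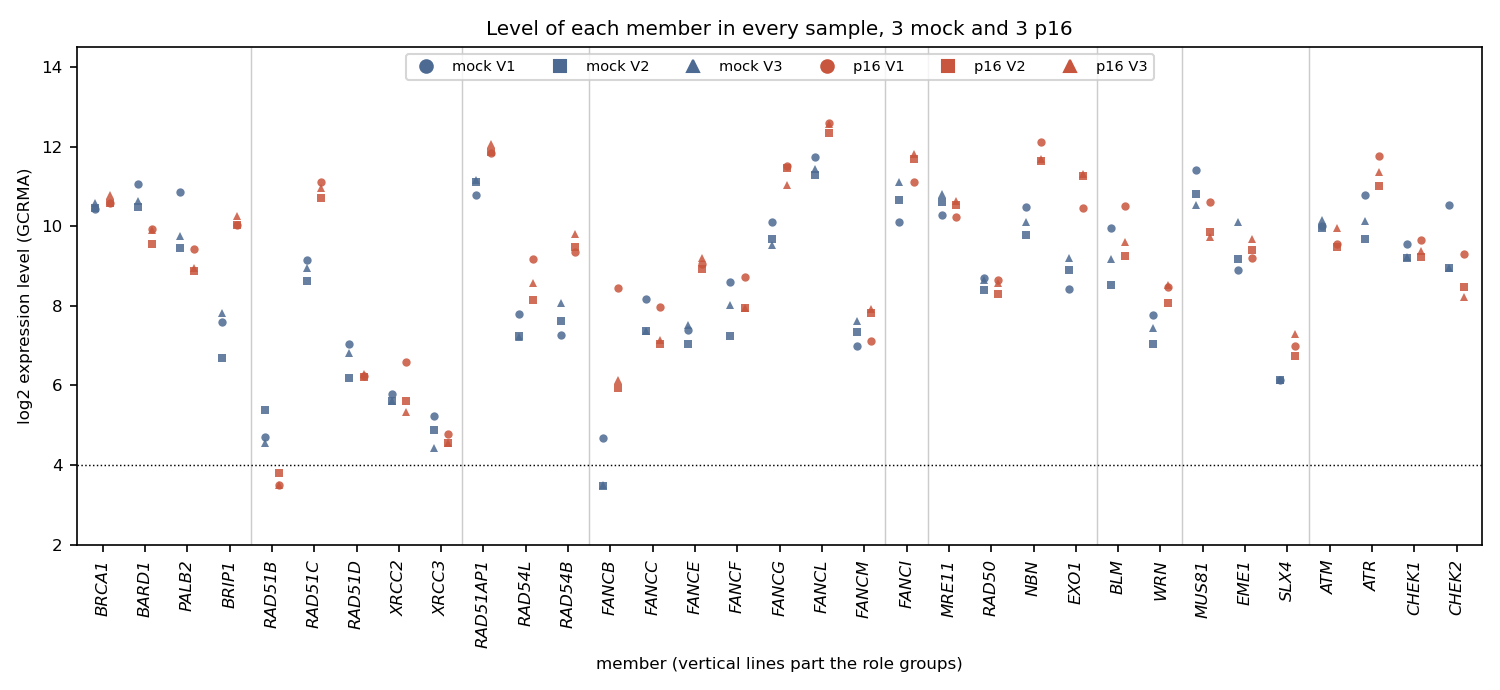
Log2 expression level of the 33 tested members in each of the 6 samples, on the probe set that stands for the gene; blue marks are mock and red marks p16 samples, the mark's shape gives the V number, and the dotted line is the level of 4 used as the floor. Levels of different genes are not comparable, because each probe set has its own response; BRIP1, RAD51C, FANCE, FANCG, NBN and EXO1 show p16 samples clear of mock samples, and FANCB starts from the floor.

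The BRCA1 complex split by subunit. BRCA1, the ubiquitin ligase that directs breaks towards recombination, read 10.43, 10.45 and 10.59 in mock V1 to V3 and 10.57, 10.58 and 10.78 in p16 V1 to V3. The groups overlapped by a narrow margin and differed by 0.16 (95% interval -0.23 to 0.54, adjusted p = 0.49). A second BRCA1 probe set, which may also match other transcripts, differed by -0.10 (adjusted p = 0.94).

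BARD1, the partner without which BRCA1 is unstable, fell. It read 11.06, 10.47 and 10.62 in mock and 9.93, 9.54 and 9.90 in p16 samples, a difference of -0.93 (SE 0.23, adjusted p = 0.023) with no overlap. A second probe set fell as well, by 0.85, and the third differed by -0.86 (adjusted p = 0.12, against 0.0029 in the blocked fit). The BARD1 call was lost without mock V3, p16 V2 or p16 V3 (adjusted p = 0.063, 0.08 and 0.065) and without the filter on low values (adjusted p = 0.05). All 3 probe sets of BARD1 thus lay lower, with different precision.

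PALB2, the bridge between BRCA1 and BRCA2, read 10.87, 9.45 and 9.76 in mock and 9.42, 8.88 and 8.95 in p16 samples. Every p16 sample lay below every mock sample, yet the spread of the mock samples left the difference of -0.94 uncalled (adjusted p = 0.13, against 0.015 in the blocked fit). BRIP1, the helicase that binds BRCA1 and is also a Fanconi gene, moved the other way and rose 6.61-fold. Its levels were 7.59, 6.70 and 7.83 in mock and 10.02, 10.02 and 10.26 in p16 samples (log2 difference 2.72, SE 0.32, adjusted p = 0.0017). The call on BRIP1 was kept in every fit that left out 1 sample, with differences of 2.39 to 2.95.

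RAD51C, RAD51B, RAD51D, XRCC2 and XRCC3 form complexes that act early in strand exchange. RAD51C, the member that those complexes share, read 9.15, 8.61 and 8.94 in mock and 11.12, 10.71 and 10.95 in p16 samples. The groups lay far apart against their spread, at a 4.08-fold rise (log2 difference 2.03, SE 0.21, adjusted p = 0.001), and a second probe set rose by 2.69. RAD51D, XRCC2 and XRCC3, its partners in those complexes, overlapped between the groups and differed by -0.45, 0.18 and -0.22 (adjusted p = 0.23, 0.74 and 0.55). RAD51D read 7.05, 6.19 and 6.81 in mock and 6.23, 6.20 and 6.28 in p16 samples, and was called lower only without mock V2 (adjusted p = 0.049). XRCC3 read 5.24, 4.89 and 4.42 in mock and 4.79, 4.55 and 4.56 in p16 samples. XRCC2 read 5.79, 5.62 and 5.62 in mock and 6.59, 5.62 and 5.34 in p16 samples. It held the value 5.62 in 3 samples of both groups, an equality that the summary step can produce.

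RAD51B gave calls in both directions. The probe set that stands for the gene read 4.71, 5.39 and 4.55 in mock and 3.51, 3.79 and 3.51 in p16 samples, at least 1.85-fold lower (adjusted p = 0.014; 0.056 without p16 V3). Another read 2.80, 2.41 and 2.51 in mock and 6.06, 4.07 and 5.51 in p16 samples, at least 2.32-fold higher (adjusted p = 0.011). Both lie close to the floor. RAD51B is counted as lower above by its brighter probe set alone, and its probe sets give no single direction. Its other 2 probe sets stayed under 4 in every sample.

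RAD54B, RAD54L and RAD51AP1, which act in strand exchange, were all higher. RAD54B and RAD54L are related motor proteins that drive strand exchange, and RAD51AP1 stabilises the joint between the exchanging strands. RAD54B read 7.27, 7.61 and 8.08 in mock and 9.35, 9.48 and 9.81 in p16 samples, a 3.72-fold rise (adjusted p = 0.003). RAD51AP1 read 10.77, 11.12 and 11.16 and then 11.84, 11.86 and 12.06, a 1.87-fold rise (adjusted p = 0.012; 0.053 without p16 V3). RAD54L read 7.80, 7.23 and 7.22 and then 9.17, 8.14 and 8.58, a 2.32-fold rise (adjusted p = 0.032).

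None of the 3 overlapped between the groups. The RAD54L call was the least firm: it was lost without mock V2, mock V3, p16 V1 or p16 V3 (adjusted p = 0.1, 0.1, 0.056 and 0.091) and without the filter on low values (adjusted p = 0.087). RAD52, the fourth of this set, an annealing factor, was not tested, as given above.

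In the Fanconi core complex, the ubiquitin ligase of the pathway, 4 of the 7 members measured rose and none was called lower. Of all genes, 19.5% were higher and 22.5% lower. FANCB, a subunit of its catalytic part, rose at least 6.12-fold. It read 4.67, 3.48 and 3.50 in mock and 8.44, 5.94 and 6.14 in p16 samples (adjusted p = 0.027), and both other tested probe sets rose, at least 9.59-fold and at least 7.39-fold. The lower limits reflect that most mock values lie under 4. No FANCB probe set reached 4 in enough mock samples to pass the filter without the p16 samples. Since the filter admitted each through the group where it was high, their agreement is no separate support. On the probe set that stands for the gene, the call was lost without mock V2, mock V3 or p16 V3 (adjusted p = 0.09, 0.093 and 0.052) and without the filter on low values (adjusted p = 0.093). The fourth FANCB probe set lay under 4 in every sample.

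FANCL, the catalytic subunit itself, read 11.73, 11.28 and 11.44 in mock and 12.59, 12.35 and 12.56 in p16 samples, a 2.02-fold rise (adjusted p = 0.0085). FANCG, an adaptor subunit, read 10.10, 9.67 and 9.52 and then 11.51, 11.47 and 11.03, a 2.98-fold rise (adjusted p = 0.004). FANCE, which contacts the substrate of the complex, read 7.40, 7.04 and 7.52 and then 9.05, 8.92 and 9.19, a 3.33-fold rise (adjusted p = 0.0013). In these 3 genes the groups were clear of each other, and the call was kept whichever sample was left out.

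The other core subunits did not pass the test. FANCC, which binds FANCE, read 8.16, 7.37 and 7.36 in mock and 7.98, 7.05 and 7.15 in p16 samples, and differed by -0.23 (95% interval -1.12 to 0.65, adjusted p = 0.66). FANCF, the scaffold of the complex, read 8.59, 7.25 and 8.01 and then 8.72, 7.94 and 7.94, and differed by 0.25 (-0.76 to 1.26, adjusted p = 0.68). FANCM, the anchor that brings the complex to stalled forks, read 6.99, 7.33 and 7.63 and then 7.12, 7.81 and 7.93, and differed by 0.30 (-0.42 to 1.03, adjusted p = 0.47). In all 3 the samples of the groups overlapped, and only the FANCC interval leaves out a rise as large as that of FANCL.

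FANCI, which the core complex ubiquitinates together with FANCD2, was called on 2 of its 3 probe sets. The brightest read 10.11, 10.66 and 11.11 in mock and 11.11, 11.69 and 11.82 in p16 samples. The highest mock and the lowest p16 sample were both 11.11 as printed, apart only beyond those digits, and the difference of 0.91 was not called (adjusted p = 0.08, against 0.0038 in the blocked fit). The other 2 rose by 0.96 and 1.49 (adjusted p = 0.0045 and 0.013). FANCI is therefore counted as not called above, on the rule that the brightest probe set stands for the gene.

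The MRN complex, which senses and tethers broken ends, was uneven. NBN, its regulatory subunit, read 10.48, 9.79 and 10.10 in mock and 12.12, 11.63 and 11.69 in p16 samples, a 3.22-fold rise (adjusted p = 0.004). The remaining 3 tested probe sets of NBN rose by 2.41 to 2.73. MRE11, the nuclease, read 10.29, 10.60 and 10.82 and then 10.23, 10.54 and 10.63, and RAD50, the tethering subunit, 8.70, 8.40 and 8.65 and then 8.65, 8.30 and 8.57. Both overlapped almost completely, with differences of -0.11 and -0.08 whose 95% intervals, -0.63 to 0.42 and -0.52 to 0.37, exclude a change as large as that of NBN. A dimmer MRE11 probe set rose by 0.85 (adjusted p = 0.049), so MRE11 had 1 probe set called and 1 not. A dimmer RAD50 probe set differed by -0.88 (adjusted p = 0.11, against 0.046 in the blocked fit).

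EXO1, the nuclease that cuts ends back over long distances, was among the members with the clearest difference. It read 8.41, 8.89 and 9.20 in mock and 10.46, 11.26 and 11.30 in p16 samples, a 4.51-fold rise (log2 difference 2.17, SE 0.33, adjusted p = 0.0041). The EXO1 call was kept in all fits that left out 1 sample, at 1.96 to 2.45. Of the RecQ helicases, which dissolve recombination intermediates, WRN read 7.77, 7.04 and 7.43 in mock and 8.47, 8.06 and 8.51 in p16 samples, a 1.91-fold rise (adjusted p = 0.033). That call was lost without mock V2, mock V3, p16 V1 or p16 V3 (adjusted p = 0.086, 0.093, 0.079 and 0.11) and without the filter on low values (adjusted p = 0.075). BLM read 9.95, 8.51 and 9.18 and then 10.51, 9.25 and 9.60, and its difference of 0.57 passed the test with the replicate block alone (adjusted p = 0.015, and 0.41 without it).

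Of the 3 genes for the cutting of joined strands, 1 was higher and 2 were not called, where 19.5% of all genes were higher. SLX4, the scaffold that gathers the nucleases, read 6.14, 6.14 and 6.13 in mock and 6.99, 6.75 and 7.29 in p16 samples, a 1.83-fold rise (adjusted p = 0.016; 0.052, 0.056 and 0.053 without mock V2, mock V3 or p16 V3). The near equality of its mock values (SD 0.00) is one that the summary step can produce, so their spread may be understated. The other SLX4 probe set stayed under 4 in every sample. MUS81, a catalytic subunit, read 11.41, 10.82 and 10.53 in mock and 10.61, 9.85 and 9.72 in p16 samples, lower in all 3 pairs. Its difference of -0.86 was not called (adjusted p = 0.11, against 0.0031 in the blocked fit and 0.044 without p16 V1). EME1, the partner of MUS81, read 8.91, 9.18 and 10.11 and then 9.19, 9.39 and 9.68, and differed by 0.02 (95% interval -0.85 to 0.89), and its groups overlapped.

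Of the damage kinases, ATR, which answers to single-stranded DNA, rose. ATR read 10.78, 9.67 and 10.14 in mock and 11.76, 11.02 and 11.35 in p16 samples, a 2.27-fold rise (adjusted p = 0.044), and its other tested probe set rose by 1.47. The call was kept without mock V1 and lost without any other single sample (adjusted p = 0.067 to 0.12), and lost without the filter on low values (adjusted p = 0.11). In the blocked fit the adjusted p was 0.0019. ATM, which answers to double-strand breaks, read 9.96 to 10.16 in mock and then 9.56, 9.48 and 9.96 on a probe set that may also match other transcripts. Those groups were apart only beyond the printed digits, at 9.96, the difference was -0.38 (adjusted p = 0.18, against 0.048 in the blocked fit), and the other 2 tested ATM probe sets differed by -0.25 and -0.05.

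CHEK1, the kinase that ATR activates, read 9.56, 9.19 and 9.23 in mock and 9.64, 9.23 and 9.38 in p16 samples. It differed by 0.09 (95% interval -0.40 to 0.57, adjusted p = 0.77), and both its other tested probe sets were uncalled too. CHEK2, the kinase that ATM activates, read 10.54, 8.96 and 8.96 in mock and 9.30, 8.46 and 8.21 in p16 samples. The mock V1 sample stood high, the groups overlapped, and the difference of -0.83 was not called (adjusted p = 0.28, against 0.016 in the blocked fit).

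**Figure D2:**
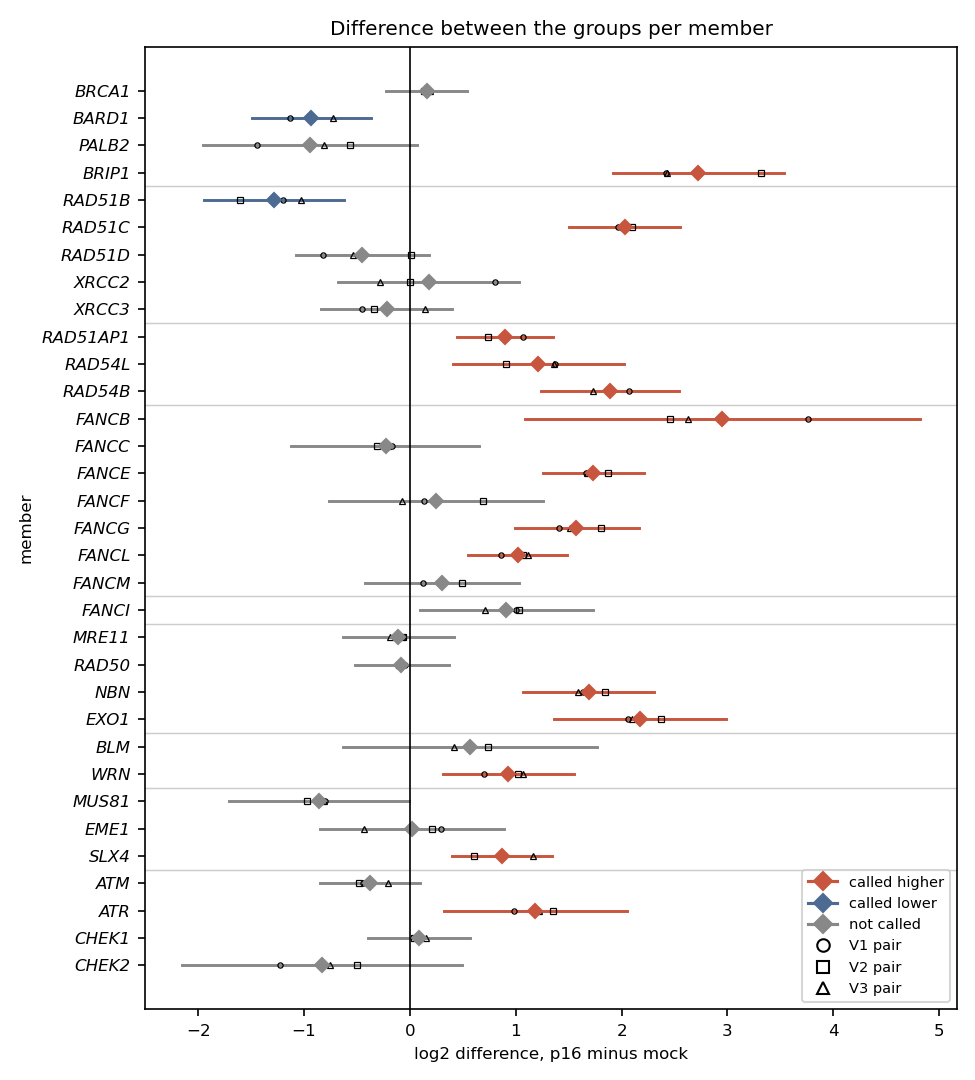
Log2 difference, p16 minus mock, for each of the 33 tested members, grouped by role; diamonds are the limma estimates, bars their 95% intervals, and small open marks the differences of the 3 same-numbered pairs. All 14 members called higher are red, the 2 called lower blue and the other 17 grey. MUS81 and BLM are examples of members whose 3 pairs share a sign while the call is missed.

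Much of the spread within a group followed the V number. In 18 members V1 was the highest sample of both groups and in 8 the lowest of both, which left 7 with another order. CHEK2, PALB2, ATR and BLM are examples of the first kind, and EXO1, FANCI and EME1 of the second. What the numbers stand for is not given. With V1 left out of both groups, 15 members were higher and 5 lower, against 28.2% and 30.6% of all genes. PALB2, MUS81 and CHEK2 were then called lower (adjusted p = 0.028, 0.014 and 0.027) and FANCI higher (adjusted p = 0.028).

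Where a member had several tested probe sets, they mostly pointed one way. Of 16 such members, 4 had every probe set called in the same direction (RAD51C, FANCB, NBN and ATR), 4 had some called (BARD1, BRIP1, FANCI and MRE11), 7 had none called and RAD51B had opposite calls. The filter admitted the FANCB and RAD51B probe sets through the group where each was high, so these calls are not independent of it. The second BRIP1 probe set read 3.25, 4.70 and 4.56 in mock and 4.70, 8.36 and 8.16 in p16 samples, and was not called (adjusted p = 0.084, against 0.0076 in the blocked fit).

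**Figure D3:**
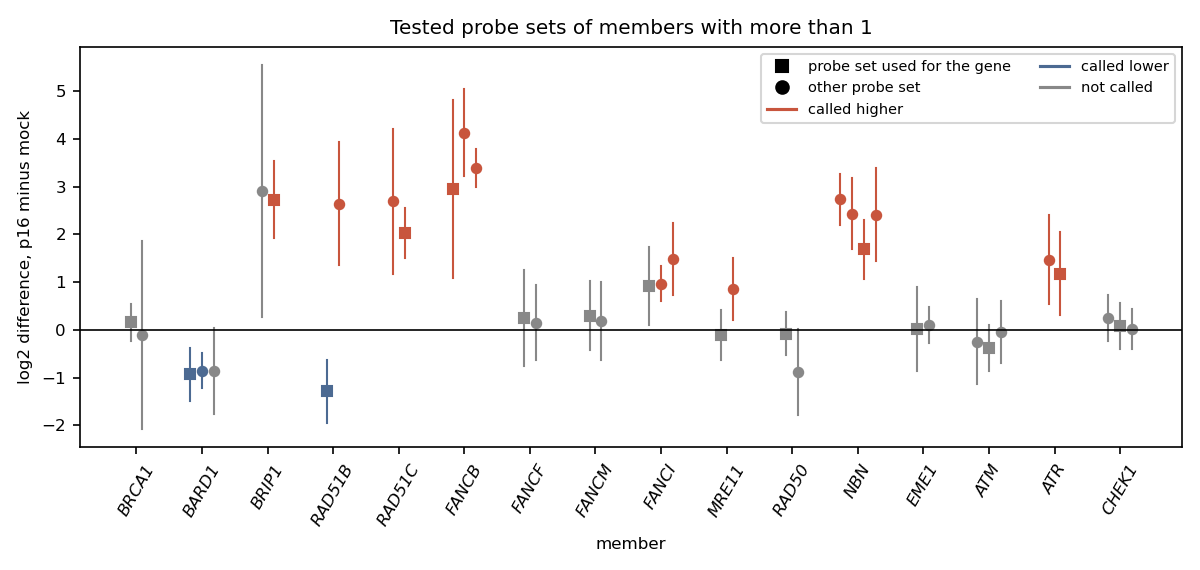
Log2 difference, p16 minus mock, of each tested probe set of the 16 members that have more than 1; squares are the probe sets that stand for the gene, circles the others, bars 95% intervals, and colour the call. RAD51B shows 1 probe set on each side of 0, and the 4 probe sets of NBN and the 3 of FANCB all lie above 0.

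Of 5 lists of other repair and division genes, 4 held more genes higher than lower and mismatch repair held 1 of each, beside 19.5% of all genes higher and 22.5% lower. Of 42 further recombination and Fanconi genes tested, 10 were higher (23.8%) and 5 lower, with a median difference of 0.25. TOP3A, the topoisomerase that works with BLM, rose by 2.84 (adjusted p = 0.0011), the ubiquitin ligase RAD18 by 2.75 (0.0011) and FAAP24, the partner of FANCM, by 2.11 (0.024). Of 16 checkpoint genes 6 were higher (37.5%) and 1 lower (median 0.67). HUS1, a subunit of the clamp that helps to activate ATR, rose by 2.24 (adjusted p = 6.2e-04), the phosphatase CDC25C by 1.71 (0.0048) and the ubiquitin ligase RNF8 by 1.64 (0.0019).

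Of 17 genes of end joining, the competing repair route, 4 were higher (23.5%) and 2 lower (median 0.26). SHLD2 and TP53BP1, which protect ends from being cut back, fell by 1.61 and 1.49 (adjusted p = 0.0053 and 0.0097), and the polymerase POLM rose by 1.71 (adjusted p = 0.0014). Of 4 mismatch repair genes (median 0.98), PMS1 rose by 1.08 and MLH3 fell by 0.99 (adjusted p = 0.017 and 0.033). Of 28 proliferation markers, 8 were higher (28.6%) and 2 lower (median 0.49), led by the cyclin genes CCNE2, CCNA2 and CCNB1 with rises of 2.19, 2.17 and 1.14 (adjusted p = 0.0016, 3.8e-04 and 0.01). The 2 lower were UBE2C, which differed by -1.10, and CDC6, by -0.64 (limma adjusted p = 0.023 and 0.034). MKI67 differed by 0.39 (adjusted p = 0.13, against 0.046 in the blocked fit) and PCNA by 0.36 (adjusted p = 0.48).

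With the replicate block, where 32.4% of all genes were higher and 35.5% lower, these counts rose along with that background. They were 20 higher and 11 lower for the further recombination genes, 11 and 4 for the checkpoint genes, 6 and 3 for end joining, 3 and 1 for mismatch repair and 19 and 5 for the proliferation markers. Leaving out p16 V3 gave 4 and 3, 4 and 1, 2 and 2, 0 and 0, and 4 and 0 in the same order, leaving out mock V2 gave 5 and 3, 6 and 1, 2 and 2, 0 and 0, and 4 and 0, and leaving out p16 V2 gave 6 and 3, 6 and 1, 2 and 2, 0 and 0, and 4 and 1. Without mock V3 they were 6 and 3, 5 and 1, 3 and 2, 1 and 1, and 5 and 0. Without mock V1 the mismatch genes had 2 higher and 1 lower and the proliferation markers 10 and 1, and without p16 V1 these were 2 and 0, and 8 and 0. The shares of all genes without p16 V3 and without mock V2 are those given above beside the member counts. Over all fits that left out 1 sample, 13.5% to 20.3% of all genes were higher and 16.4% to 22.1% lower. Where a count of the mismatch genes was 0, 2 were higher and 1 lower at an unadjusted p under 0.05, and where the proliferation markers had 0 lower, 2 or 3 were. The proliferation markers had more genes higher than lower in each of these limma fits. The part of proliferation in the members' differences was not tested.

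Promoters of the members were searched for the letters that E2F factors, the transcription factors released when RB is phosphorylated, bind in many S-phase genes. RefSeq promoters (GRCh38.p14) were found for 34 of the 38 members, and the 250 bases before the start were read on both strands for TTTCCCGC, TTTGGCGC, TTTCGCGC, TTTGGCGG, TTTCCCGG and TTTCGCGG. A match was found in 4 members, or 11.8%, against 5.35% of the 27305 genes in the promoter table: in ATR, the 1 match among 11 members called higher, and in FANCC, FANCF and RAD50, 3 of 16 not called. With the 50 bases after the start added, the members with a match were 7 (20.6%, against 6.21% of all genes), EXO1 and XRCC2 among them. The pairs TTTGAA and TTCGAA of the CHR element, which marks genes of G2 and mitosis, were found in ATM, BRIP1 and FANCC (8.82%, against 17.2%). CCAAT was found in 15 members (44.1%, against 37.0%). Among them were 3 of the 11 called higher (27.3%) and 11 of the 16 not called (68.8%). A match is a run of letters and not a shown binding site.

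The 4 promoters with an E2F match are shown because the one in a gene that rose, ATR, can be read beside 3 in genes that were not called. Each is 120 bases, 5′ to 3′ on the strand of the gene, with the match nearest the start in capitals: ATR from chr3:142578864-142578983, FANCC from chr9:95317710-95317829 and FANCF from chr11:22625825-22625944, all on the minus strand, and RAD50 from chr5:132556857-132556976 on the plus strand. The capitals of ATR are TTTCCCGG on the opposite strand, 204 to 211 bases before the start, and those of FANCC, FANCF and RAD50 begin 46, 65 and 53 bases before it.
ATR: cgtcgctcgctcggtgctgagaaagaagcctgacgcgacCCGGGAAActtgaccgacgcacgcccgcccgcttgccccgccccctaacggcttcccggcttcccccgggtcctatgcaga
FANCC: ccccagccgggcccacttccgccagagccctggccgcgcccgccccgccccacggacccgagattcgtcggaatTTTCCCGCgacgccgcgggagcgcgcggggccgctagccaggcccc
FANCF: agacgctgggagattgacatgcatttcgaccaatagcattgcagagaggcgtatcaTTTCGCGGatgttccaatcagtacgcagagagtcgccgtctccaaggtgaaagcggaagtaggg
RAD50: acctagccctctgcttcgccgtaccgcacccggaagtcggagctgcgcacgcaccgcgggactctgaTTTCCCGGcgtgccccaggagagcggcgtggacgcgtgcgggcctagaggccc

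Members that rose tended to lie among genes that rose. For each member the 20 nearest tested genes in RefSeq order, 10 on each side, were taken, a comparison chosen after the members' values were seen. The neighbours of the 14 members called higher had a median log2 difference above 0 in 12 cases, and above the upper quartile of such medians over all genes (0.46) in 8. For the 17 members not called this was 5 and 3. The median of the neighbours was 1.72 at NBN, where 14 of 20 were called higher and 1 lower, 1.35 at RAD54B, 1.10 at FANCB, and 1.07 at both RAD51C and EXO1, where 7 and 13 of 20 were higher.

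Several members went against their surroundings. RAD50 differed by -0.08 among neighbours with a median of 1.43, of which 11 were higher. RAD51AP1 and RAD54L rose among neighbours with medians of -0.50 and -0.44, of which 7 and 6 were lower and 1 and 0 higher. On the low side, the neighbours of BARD1, PALB2 and CHEK2 had medians of -0.66, -0.61 and -0.77. The lowest medians were those of XRCC3 and FANCC, -1.37 and -1.06 with 11 of 20 neighbours lower at each, while these genes differed by -0.22 and -0.23 and were not called. Across the 33 members the difference of a member and the median of its neighbours had a Spearman correlation of 0.66 and a Pearson correlation of 0.64, given as a description because the points share the same 6 arrays. Over all 11628 genes with enough neighbours the correlations were 0.47 and 0.37. What accompanies it was not tested.

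**Figure D4:**
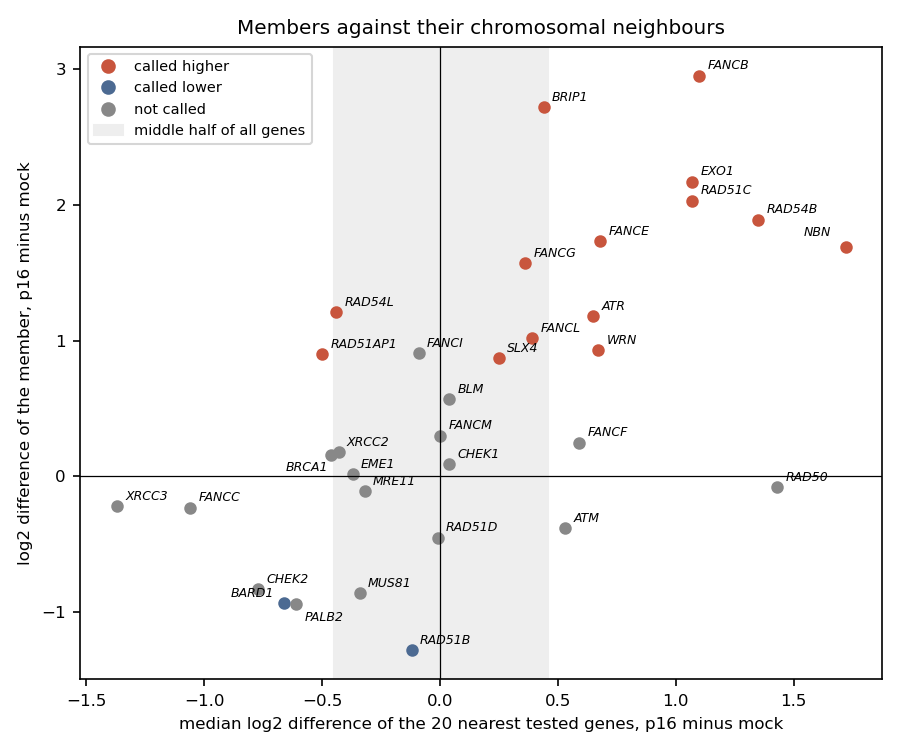
Log2 difference of each member, p16 minus mock, against the median difference of its 20 nearest tested genes; colour gives the member's call and the grey band spans the lower to the upper quartile of neighbour medians over all genes (-0.45 to 0.46). NBN, RAD54B, FANCB, RAD51C and EXO1 lie high on both axes, RAD50 lies at 0 among high neighbours, and RAD51AP1 and RAD54L lie high among low ones.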

How the data were processed

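Expression was measured in 3 p16 and 3 mock samples. The deposited values are log2 levels, for which the submitters' processing notes name GCRMA. GCRMA corrects background from probe sequence, so unexpressed probe sets gather under 4, folds against that floor are lower limits, and equal values can arise. The column medians were 3.11 to 3.18. Of 54675 probe sets, 62 controls were left out, and the platform annotation gave 1 gene for 41091, several for 1801 (unused) and none for 11721.

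Probe sets at 4 or above in at least 3 of 6 samples (24406 probe sets, 11658 genes) were fitted by lmFit and eBayes of limma 3.58.1 (R 4.3.3) without a block, with Benjamini-Hochberg adjustment over all of them. The brightest tested probe set stands for a gene. Means use n = 3, and "at least" folds raise values under 4 to 4. The fit was tested on simulated data.

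Deviations from the group means were correlated between samples of the same number (0.81, 0.75 and 0.67, each above the 0.1 required), and by that rule the numbers pair the samples. V2 and V3 of different groups also did (0.42 and 0.51). The pairing comes from the data and not from a statement in the labels. The fit with the block is an alternative.

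The members and lists were chosen with earlier results of these data known. Every member is accounted for. Values by sample are given for members called, for BRCA1 and for members whose groups did not overlap (BRCA2 has no value). Of each other list up to 3 called genes with the largest change are named, and CDKN2A, CDKN2B and MTAP check the labels. MKI67, PCNA, UBE2C, CDC6 and some further members were added after their values were seen. The filter, the normalization, the variance model and the rule for probe sets were each varied, and samples were left out in turn. The settings for opposite calls within a gene and for the list counts, the neighbour comparison and the longer promoter window were chosen after seeing the data. Figures were made with Python 3.11.15 and matplotlib 3.10.9.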

Additional observations from a re-analysis of the deposited data

How the results depend on the processing

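Across 16 alternatives, 10 of the 16 called members kept their call and direction in every one that left out no sample, and 8 kept them in every fit that left out 1 sample. The members called higher were 8 to 14 and those called lower 0 to 3 when 1 sample was left out, the median difference over members 0.21 to 0.57, and the members with opposite calls 0 to 1. Of all genes, 13.5% to 20.3% were higher and 16.4% to 22.1% lower in those fits. With a replicate block by V number, 6 members were lower against 2 (35.5% of all genes against 22.5%), and the median stayed at 0.30. Paired, the fit ended no call, and beside those given in the report it changed none for a gene's probe set. Without replicate 1 of both groups 5 were lower (30.6% of all genes). One member was lower without the filter on low values, with the filter at 6, with values under 4 raised to 4, with the mean of the probe sets and with the probe set of the smallest p. The shares of all genes lower were 10.9%, 22.7%, 22.3%, 25.7% and 26.3% in that order. The median over members was 0.72 with the filter at 6, 0.57 with values raised to 4 or with the mean of the probe sets, and 0.85 with the smallest p. With the filter at 6 or values raised to 4, limma gave 0 members opposite calls. RAD51B turned to 1.21 with values raised to 4, to 0.68 with the mean and to 2.64 with the smallest p, and MRE11 to 0.85 with the smallest p, since another of their probe sets then enters. The Spearman correlation with neighbours was 0.66 with 5 and 0.63 with 20 genes a side. Signal near the floor limits RAD51B, XRCC3 and FANCB, and 3 samples a group limit small differences.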
